A study of Rattus norvegicus with 12 samples.

Results

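The 10 genes described here are scavenger receptors of classes A, B, E and H together with the large endocytic receptor Lrp1. They were chosen by symbol from 22850 listed features, by a rule that uses no measured value, though with earlier results of these data known, as Msr1, Marco, Scara3, Scara5 and Colec12 of class A, Scarb1 and Cd36 of class B, Olr1 of class E, Stab1 of class H, and Lrp1. Their transcripts were measured by mRNA sequencing in primary atrial fibroblasts of newborn Sprague-Dawley rats, separated from other atrial cells by differential adhesion, which enriches fibroblasts but does not sort them. All 12 libraries came from cells kept for 48 h with 1 μmol/L angiotensin II (AngII), a peptide hormone that activates fibroblasts. The AngII group received no peptide, the AngII+HNG group received 10 μmol/L HNG, an analogue of the mitochondrial-derived peptide humanin, and the AngII+MOTS-c group received 5 μmol/L MOTS-c, another mitochondrial-derived peptide, each added before AngII. Each group held 4 libraries, which the study describes as biological replicates and as independent samples, without saying whether they came from separate cell preparations. The library names give replicates 2 and 3 of each group the same number, so a fit with these replicates summed was among the alternatives tried. No group without AngII was analysed here, and the comparisons are those of a peptide against AngII alone and of one peptide against the other.

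Scavenger receptors are membrane proteins that bind modified lipoproteins and many other polyanionic ligands and carry them into endosomes. They were first described on macrophages, but several are also made by fibroblasts and endothelial cells. Lrp1 belongs to the lipoprotein receptor family and clears apolipoprotein E particles, proteases and protease-inhibitor complexes, among them those of the plasminogen activator system, and in fibroblasts it also takes up matrix proteins. In fibrotic tissue these receptors stand between the breakdown of matrix, the handling of lipid and the removal of debris.

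The libraries held 27960586 to 38322354 counts, and the floor used here, 3 counts in a library, equals 0.0783 to 0.107 CPM and concerns counting error alone. CPM is a count relative to the size of its library, which was adjusted by the TMM method over all 12 libraries. Fibroblast markers were abundant, with summed levels of 62120 to 69560 CPM for 10 genes, and none of the 10 was at 0. Cells of other types were also represented. Markers of cardiomyocytes summed to 6936 to 9143 CPM for 11 genes, with Myh6 at 1650 to 2541 CPM, and 16 markers of macrophages summed to 278.2 to 468.7 CPM, with Csf1r at 48.2 to 72.9 CPM. As these were bulk samples, fewer cells of a type and less RNA per cell cannot be told apart for any gene described here. Replicate 4 held the highest macrophage marker sum of each treatment, so the count of receptor genes called is also given without it.

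The receptor genes spanned a wide range of levels, which were compared between genes in FPKM, counts divided by transcript length and by the library total, because only this unit is divided by length. Lrp1 was the most abundant, with a mean of 96.4 FPKM over the 12 libraries, above 96.5% of the 18385 genes with any count. Scarb1, the receptor for high-density lipoprotein, followed with 24.9 FPKM, then Colec12, a class A receptor with a C-type lectin domain, with 21.3 FPKM and Scara5, a class A receptor that binds ferritin, with 16.8 FPKM. Olr1, the receptor for oxidized LDL also called LOX-1, stood at 8.86 FPKM, and Msr1, the founding class A macrophage receptor, at 8.34 FPKM. Stab1, a hyaluronan-binding receptor of sinusoidal endothelium and some macrophages, stood at 2.63 FPKM, Cd36, a fatty acid and thrombospondin receptor, at 2.17 FPKM and Scara3, a class A member linked to the response to oxidative stress, at 1.08 FPKM. Marco, a class A receptor of resident macrophages, had 0 counts in all 12 libraries, which allows a level of up to 0.0783 to 0.107 CPM per library. The order of the 9 detected genes is not sharp everywhere. In the AngII group the libraries of Olr1 and Msr1 overlapped, as did those of Cd36 and Stab1, whereas all other neighbours in the order were separated. In the AngII+HNG group Msr1 (10.1 FPKM) stood above Olr1 (8.29 FPKM) and Stab1 (3.03 FPKM) above Cd36 (2.11 FPKM), but the libraries of Msr1 and Olr1 overlapped, and so did those of Scarb1 and Colec12 and of Colec12 and Scara5. In the AngII+MOTS-c group the order was that of AngII except that Stab1 stood above Cd36, with overlap. Without division by length, 4 of the 10 ranks over all libraries moved, since the long Stab1 transcript then passed Msr1 and Scara5 passed Colec12 and Scarb1.

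**Figure D1:**
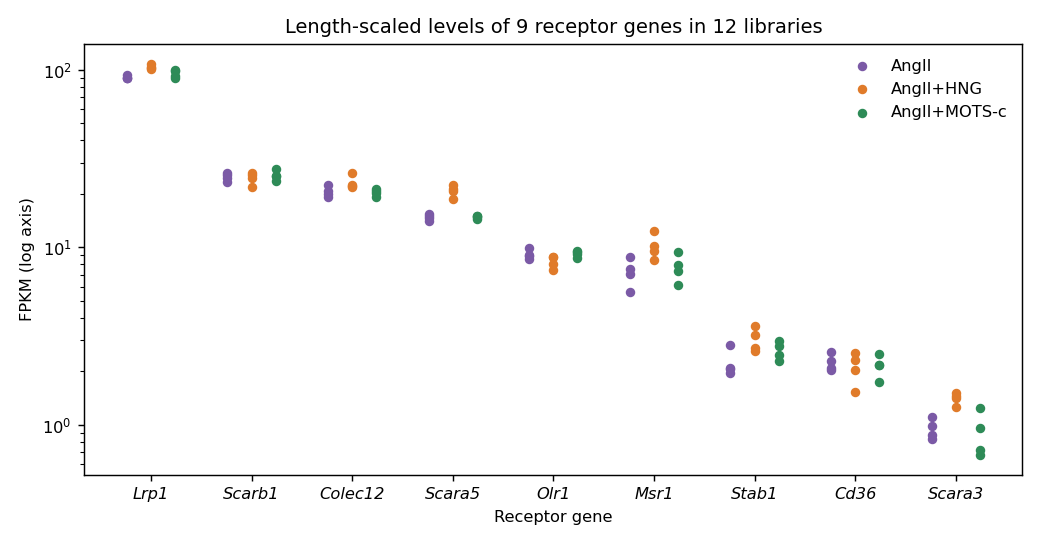
Levels of the 9 detected receptor genes in FPKM on a log axis, with 1 point for each of the 12 libraries and colours for the 3 treatments. Lrp1 lay highest, with means of 90.9 to 104 FPKM per treatment, and Scara3 lowest, with means of 0.897 to 1.408 FPKM.

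The spread between replicates followed abundance in part. The coefficient of variation within a treatment was 1.83% to 5.11% for Lrp1, which had 40546 to 59791 counts per library, and 2.09% to 7.29% for Scara5. It reached 14.0% to 19.3% for Msr1, 10.9% to 17.6% for Stab1 and 7.36% to 29.1% for Scara3, whose counts were only 82 to 188 per library. Cd36, with 139 to 246 counts per library, varied by 10.7% to 20.2%. Differences of a given size are therefore least certain for Scara3, Cd36, Stab1 and Msr1.

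Upstream sequence was available for 6 of the 10 genes in the RefSeq table of the rat assembly GRCr8, and those of Lrp1 and Olr1 are shown because their fitted changes with HNG had opposite signs, although only that of Lrp1 passed the test. Both are the 250 bases before the annotated start, read 5′ to 3′ in the direction of transcription, and capitals mark the motif letters searched on both strands. Lrp1 lies at chr7:65346197-65346446 and Olr1 at chr4:164634548-164634797, both on the minus strand of GRCr8.
Lrp1: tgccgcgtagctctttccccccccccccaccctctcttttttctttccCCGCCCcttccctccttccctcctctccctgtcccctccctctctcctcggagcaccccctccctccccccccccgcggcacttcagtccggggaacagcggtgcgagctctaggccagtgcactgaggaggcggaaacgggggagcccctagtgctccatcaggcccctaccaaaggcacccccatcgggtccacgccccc
Olr1: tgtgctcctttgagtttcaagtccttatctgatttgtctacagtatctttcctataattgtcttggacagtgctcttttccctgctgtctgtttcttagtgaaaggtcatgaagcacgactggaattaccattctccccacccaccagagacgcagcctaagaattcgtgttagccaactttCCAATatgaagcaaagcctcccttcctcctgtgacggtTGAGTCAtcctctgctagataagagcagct
The letters searched were GGGCGG for the GC box, CACGTG for the E-box, CCAAT for the CCAAT box, TATAAA for the TATA box and TGANTCA for the AP-1 site, and no match overlapped another. The Lrp1 stretch is rich in GC, at 68.8% with 13 CpG dinucleotides, against medians of 51.2% and 5 for 33469 promoters of that length. It held 1 GC box, whose letters begin 202 bases before the start and are present in 30.5% of all promoters. The Olr1 stretch had 45.2% GC and 4 CpG dinucleotides. It held a CCAAT box 68 bases and an AP-1 site 30 bases before the start, letters found in 34.0% and 6.34% of all promoters respectively. Such matches describe the sequence and are not sites of binding. The further stretches, of Colec12, Stab1, Cd36 and Marco, had 73.6%, 61.6%, 45.6% and 43.6% GC.

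The comparison of AngII+HNG with AngII asks which receptor transcripts differed when HNG was added. Scara5, Scara3, Msr1 and Lrp1 were higher with HNG, Scara5 by 38.8%, Scara3 by 45.7%, Msr1 by 41.2% and Lrp1 by 12.6%, and no receptor gene was called lower. These were 4 of the 9 genes that could be tested with the quasi-likelihood F-test of edgeR, adjusted by Benjamini-Hochberg over all 14524 genes at a threshold of 0.05. Of all genes 5.98% were called, 3.4% higher and 2.58% lower. Without replicate 4 of both groups 3 of the 9 were called, Lrp1 being lost. Marco was not tested. The median log2 fold change of the 9 genes was 0.17, against 0.00 for all genes, and 7 of the 9 had an unadjusted p below 0.05, against 20.3% of all genes. The receptor genes were listed with earlier results of these data known, so these shares are a description.

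Scara5 gave the clearest difference. Its level was 55.8, 61.2, 60.0 and 58.7 CPM in AngII replicates 1 to 4 and 73.3, 81.9, 83.1 and 87.4 CPM in AngII+HNG replicates 1 to 4. Every HNG library lay well above every AngII library. The means were 58.9 ± 2.34 CPM and 81.4 ± 5.94 CPM (SD, n = 4 each), a log2 fold change of 0.47 (SE 0.0553, 95% confidence interval 0.353 to 0.593, edgeR adjusted p = 0.000488). The call held in all 19 alternatives, with log2 fold changes of 0.44 to 0.52.

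Scara3, a neighbour of Scara5 on the same chromosome of GRCr8, was also higher with HNG, at a much lower level. Its AngII libraries held 2.97, 3.11, 3.50 and 3.95 CPM and its AngII+HNG libraries 5.08, 4.93, 4.41 and 5.25 CPM, so the groups did not overlap. The log2 fold change was 0.54 (SE 0.122, 95% confidence interval 0.280 to 0.807, edgeR adjusted p = 0.0191). The call was lost when all 12 libraries were fitted together (edgeR adjusted p = 0.0637) and without AngII replicate 1 (0.0743), AngII replicate 2 (0.07), AngII+HNG replicate 2 (0.0523) or AngII+HNG replicate 4 (0.056). The RefSeq table places 7 genes between Scara5 and Scara3, of which 3 code for protein. These 3, named after their values were seen, gave log2 fold changes of 0.11 for Pbk, 0.01 for Esco2 and -0.01 for Ccdc25, with edgeR adjusted p-values of 0.501, 0.958 and 0.956.

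Msr1 held 15.7, 13.0, 17.6 and 20.7 CPM in the AngII libraries and 23.6, 20.1, 21.8 and 28.8 CPM in the AngII+HNG libraries. AngII+HNG replicate 2 lay below AngII replicate 4, so the groups overlapped, and replicate 4 was the highest library in all 3 treatments. The log2 fold change was 0.50 (SE 0.133, 95% confidence interval 0.209 to 0.786, edgeR adjusted p = 0.046). This call stood close to the threshold and held in 11 of 19 alternatives, with adjusted p-values of 0.000969 to 0.145. It was lost without AngII replicate 1 (0.145), 2 (0.125) or 3 (0.0914), without AngII+HNG replicate 1 (0.0805) or 4 (0.126), with replicates 2 and 3 summed (0.0579) and with limma on log2 FPKM (0.0951 and 0.0904), while it held without replicate 4 of both groups (log2 fold change 0.50, edgeR adjusted p = 0.0288).

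Colec12, the most abundant class A receptor, held 63.0, 60.6, 58.3 and 68.9 CPM with AngII and 67.1, 66.1, 65.2 and 78.4 CPM with AngII+HNG. All HNG libraries lay above the AngII mean, but AngII replicate 4 was higher than 3 of them. Its log2 fold change of 0.15 (95% confidence interval 0.003 to 0.291) did not pass the test (edgeR adjusted p = 0.238). Of 19 alternatives 1 called it, the block by library-name number (edgeR adjusted p = 0.0475), and over all of them adjusted p ran up to 0.496. Without AngII+HNG replicate 4 its log2 fold change was 0.08, lower by more than 1.5 times.

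The class B receptors showed no difference past the test. Scarb1 held 63.7, 68.3, 63.8 and 60.9 CPM with AngII and 65.4, 62.5, 65.4 and 55.7 CPM with AngII+HNG. The libraries of both groups were interspersed, and the log2 fold change was -0.04 (95% confidence interval -0.164 to 0.085, edgeR adjusted p = 0.773). Cd36 held 5.81, 6.48, 7.33 and 5.98 CPM with AngII and 7.06, 5.72, 4.32 and 6.51 CPM with AngII+HNG. Its log2 fold change of -0.11 had a wide interval of -0.419 to 0.193 (edgeR adjusted p = 0.727), so a rise or fall within that interval was not detectable at this spread. Leaving out AngII+HNG replicate 4 for Scarb1 or AngII+HNG replicate 3 for Cd36 turned the log2 fold change to 0.01.

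Olr1 held 35.1, 33.7, 35.6 and 39.6 CPM with AngII and 34.5, 31.3, 29.2 and 34.4 CPM with AngII+HNG. All 4 HNG libraries lay below the AngII mean, but 2 of them lay above the lowest AngII library. The log2 fold change of -0.15 (95% confidence interval -0.296 to -0.006) did not pass the test (edgeR adjusted p = 0.227), and no alternative called it.

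Stab1 held 17.5, 17.5, 23.8 and 16.6 CPM with AngII and 21.6, 22.8, 26.6 and 29.9 CPM with AngII+HNG. AngII replicate 3 stood apart from the other AngII libraries and lay above AngII+HNG replicates 1 and 2, which was the overlap between the groups. The log2 fold change was 0.43 (SE 0.121, 95% confidence interval 0.169 to 0.692) and missed the threshold (edgeR adjusted p = 0.0555). Of the 19 alternatives 8 called it, with adjusted p-values over all of them of 0.0135 to 0.271, among them DESeq2 (0.0135) and the fits without AngII replicate 3 (0.0141) or AngII+HNG replicate 1 (0.0391). Without replicate 4 of both groups its log2 fold change was 0.28 (edgeR adjusted p = 0.271), lower by more than 1.5 times.

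Lrp1 held 1447, 1392, 1394 and 1402 CPM with AngII and 1539, 1569, 1568 and 1649 CPM with AngII+HNG. The AngII libraries lay close together and every HNG library was above them. The log2 fold change was small at 0.17 (SE 0.035, 95% confidence interval 0.096 to 0.247) and passed the test (edgeR adjusted p = 0.012). It was lost without AngII replicate 2 (0.05 after rounding), without AngII replicate 3 (0.0508) and without replicate 4 of both groups (0.0578). In all, Scara5, Scara3 and Lrp1 were the 3 of 9 receptor genes whose HNG and AngII libraries did not overlap, each with HNG higher, against 6.87% of all genes.

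**Figure D2:**
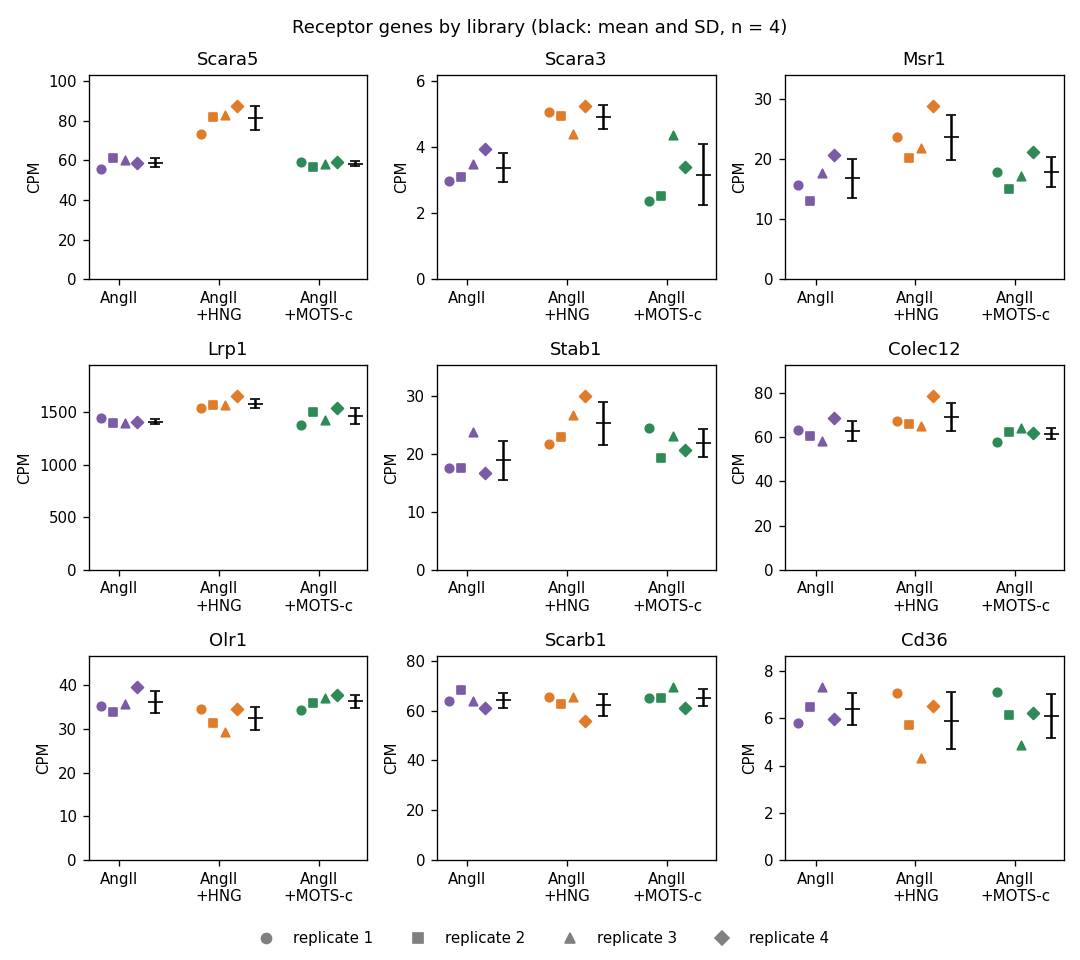
CPM of the 9 detected receptor genes in each library, with markers for replicate numbers and black bars for mean and SD of 4 libraries. The AngII+HNG libraries of Scara5, Scara3 and Lrp1 lie above all AngII libraries, whereas those of Scarb1 and Cd36 are interspersed with them.

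The comparison of AngII+MOTS-c with AngII asks the same for MOTS-c. None of the 9 receptor genes was called by edgeR's quasi-likelihood test, none had an unadjusted p below 0.05 and none was called by DESeq2. Among all 14488 genes 1 was called, or 0.0069%, and 5.05% had an unadjusted p below 0.05. No receptor gene had groups that did not overlap, against 3.41% of all genes, or 1.68% with MOTS-c higher.

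Scara5 held 59.3, 56.8, 58.3 and 59.4 CPM with AngII+MOTS-c, within the range of the AngII libraries. Its log2 fold change was -0.01 with an interval of -0.093 to 0.073. Lrp1 held 1376, 1503, 1420 and 1539 CPM, of which replicates 2 and 4 were above all AngII libraries and replicate 1 below them, and its log2 fold change was 0.05 (95% confidence interval -0.026 to 0.131). Msr1 held 17.9, 15.04, 17.2 and 21.1 CPM (log2 fold change 0.09, 95% confidence interval -0.187 to 0.364). Scara3 was the most variable, at 2.38, 2.53, 4.38 and 3.40 CPM, with replicates 1 and 2 below every AngII library and replicate 3 above them. Its interval of -0.501 to 0.300 allows a difference of some size in either direction. Stab1 held 24.5, 19.2, 23.1 and 20.7 CPM, all above the AngII mean of 18.8 CPM, with a log2 fold change of 0.22 (95% confidence interval -0.020 to 0.454, edgeR adjusted p = 0.924). Over the alternatives the log2 fold change of Stab1 ran from 0.13 to 0.35 and that of Lrp1 from 0.02 to 0.09. That of Msr1 ran from -0.02 to 0.21 and that of Scara3 from -0.29 to 0.02. Colec12 at 58.0 to 63.9 CPM, Scarb1 at 61.1 to 69.6 CPM, Cd36 at 4.87 to 7.12 CPM and Olr1 at 34.2 to 37.8 CPM gave log2 fold changes of -0.03, 0.03, -0.07 and 0.01.

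The 2 peptides were compared directly in AngII+HNG against AngII+MOTS-c, at 10 and 5 μmol/L respectively, so the doses differed. Scara5 was 39.5% higher in the HNG libraries than in those of MOTS-c, with a log2 difference of 0.48 (SE 0.0527, 95% confidence interval 0.366 to 0.594, edgeR adjusted p = 0.000442), and all HNG libraries were above all MOTS-c libraries. It was the 1 of 9 receptor genes called, against 4.41% of all 14448 genes (2.64% higher and 1.77% lower with HNG), and it was called in all 19 alternatives. Without replicate 4 of both groups it was again the 1 receptor gene called. This comparison shares its HNG libraries with the comparison against AngII, so the results are not independent.

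Scara3 had a larger log2 difference of 0.64 and groups that did not overlap, though by little. AngII+HNG replicate 3, the lowest HNG library, held 4.41 CPM and AngII+MOTS-c replicate 3 held 4.38 CPM. Scara3 missed the threshold (SE 0.174, 95% confidence interval 0.265 to 1.019, edgeR adjusted p = 0.0568). It was called in 6 of 19 alternatives, with adjusted p-values of 0.0153 to 0.198 over all, and was called without AngII+MOTS-c replicate 3 (0.0153). Msr1 differed by 0.41 (SE 0.117, 95% confidence interval 0.154 to 0.660, edgeR adjusted p = 0.0717) and was called in 4 of 19 alternatives, with adjusted p-values of 0.00168 to 0.201 over all, of which 1 was the fit without AngII+MOTS-c replicate 4 (0.0331). The HNG libraries of Colec12 and Lrp1 also lay above all MOTS-c libraries, for Lrp1 by less than the rounding shows, with log2 differences of 0.17 and 0.12 and edgeR adjusted p-values of 0.139 and 0.166. That of Colec12 was 0.11 without AngII+HNG replicate 4 and also without replicate 4 of both groups. Groups that did not overlap were thus found for 4 of 9 receptor genes, each with HNG higher, against 6.37% of all genes. The log2 difference was 0.21 for Stab1 (95% confidence interval -0.014 to 0.436), -0.16 for Olr1 (-0.299 to -0.026), -0.07 for Scarb1 (-0.194 to 0.059) and -0.05 for Cd36 (-0.381 to 0.283), and none of these passed the test. That of Stab1 was 0.12 without AngII+HNG replicate 4 and 0.10 without replicate 4 of both groups, and that of Cd36 turned to 0.07 without AngII+HNG replicate 3 and 0.03 without AngII+MOTS-c replicate 1. That of Scarb1 was -0.02 without AngII+HNG replicate 4 and -0.04 without AngII+MOTS-c replicate 3.

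**Figure D3:**
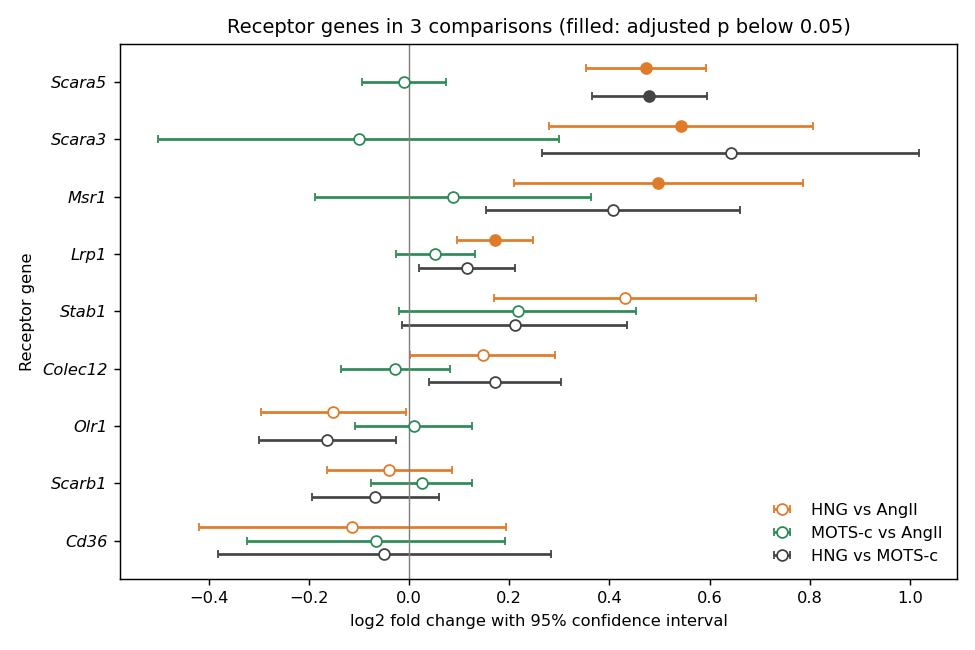
Log2 fold changes of the 9 tested receptor genes with 95% confidence intervals in the comparisons of HNG with AngII, MOTS-c with AngII and HNG with MOTS-c, with filled points for an adjusted p below 0.05. Scara5 is called in both comparisons that contain HNG, at 0.47 and 0.48, and no gene is called for MOTS-c against AngII.

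Genes of the surrounding pathway were taken from 5 lists of 90 genes, of which 85 could be tested in each comparison. With HNG against AngII 13 of them were called higher and 4 lower by edgeR's quasi-likelihood test, or 20% of those tested beside 5.98% of all genes, and their median log2 fold change was 0.02. The lists were written with earlier results of these data known, Apoe among them, so the share is not independent evidence. With MOTS-c against AngII none of the 85 was called by edgeR or by DESeq2, while 8 had an unadjusted p below 0.05, against 5.05% of all genes, among them Abca1 (0.00377), Cav1 (0.0116), Fabp4 (0.0153) and Apoe (0.0411).

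Of 14 other scavenger receptors 11 were tested and 3 were called higher with HNG, against 3.4% of all genes. Cd68, a lysosomal glycoprotein of macrophages, held 18.7, 17.8, 21.5 and 24.4 CPM with AngII and 29.7, 28.2, 36.7 and 37.7 CPM with AngII+HNG, without overlap. Its log2 fold change of 0.69 (SE 0.112, edgeR adjusted p = 0.00343) was larger than that of any of the 9 receptor genes. Mrc1, the mannose receptor, held 28.7, 28.7, 30.4 and 35.0 CPM with AngII and 42.2, 39.7, 42.6 and 55.3 CPM with AngII+HNG, also without overlap, and rose by 0.55 (SE 0.0981, edgeR adjusted p = 0.00568). Cxcl16, a chemokine that in its membrane form binds oxidized lipoprotein, rose by 0.29 (SE 0.0607, edgeR adjusted p = 0.0143), a call lost without AngII replicate 1 or 3, where adjusted p was at most 0.067. The median log2 fold change of the 11 was 0.14.

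The summed level of macrophage markers was also higher with HNG. Of 15 tested markers 3 were called higher and 1 lower, against 3.4% and 2.58% of all genes. The log2 fold change was above 0 for 11 of them and below 0 for 4, with a median of 0.27. The sum of the 16 markers was 281.4 to 334.8 CPM with AngII, 361.4 to 468.7 CPM with AngII+HNG and 278.2 to 328.7 CPM with AngII+MOTS-c. The HNG range thus lay above both others, and replicate 4 was highest in each treatment. For HNG against AngII, Lyz2, a lysozyme gene, rose by 0.75, Ptprc, the leukocyte antigen CD45, by 0.37 and Spi1, a myeloid transcription factor, by 0.49, while the chemokine receptor gene Cx3cr1 fell by 1.27. Of the defining markers Ptprc thus passed the test, while Adgre1, Csf1r and C1qa did not (edgeR adjusted p = 0.185, 0.4 and 0.843). The means of Adgre1, Csf1r and C1qa were 3.37 against 2.62 CPM, 53.1 against 59.5 CPM and 5.32 against 5.67 CPM in AngII against AngII+HNG. None of the 16 markers was at 0 in all libraries of a treatment. The part of these cells in the levels of Msr1, Stab1, Cd68 and Mrc1 was not tested.

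**Figure D4:**
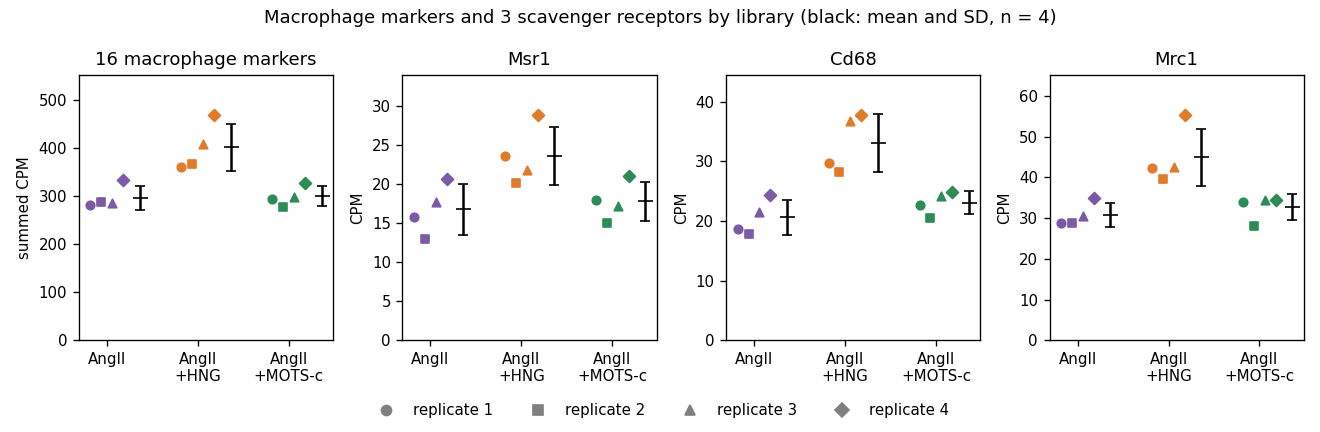
Summed CPM of 16 macrophage markers beside the CPM of Msr1, Cd68 and Mrc1 in each library, with markers for replicate numbers and black bars for mean and SD of 4 libraries. All 4 panels are highest in the AngII+HNG group, where replicate 4 is the highest library.

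The other cell type markers gave the following counts for HNG against AngII, where 3.4% of all genes were called higher and 2.58% lower. Of 11 endothelial markers Kdr, Tek and Tie1 were higher and Flt1 lower, with sums of 132.6 to 145.7 CPM for AngII and 142.5 to 151.4 CPM for AngII+HNG, and their part in the level of Stab1 was not tested. Of 10 smooth muscle and pericyte markers 5 were lower, with sums of 1723 to 1820 CPM against 1414 to 1499 CPM. Tnni3 was the 1 of 11 cardiomyocyte markers called (higher), Plin4 the 1 of 6 adipocyte markers (higher, 3 tested), and Upk1b the 1 of 6 mesothelial markers (higher). None of the 5 Schwann cell markers was called, with 4 tested, and of 10 fibroblast markers Tcf21 and Thy1 were higher. The adipocyte markers, of which 5 of 6 had means below 1 CPM, summed to 8.94 to 14.9 CPM with AngII and 15.9 to 19.1 CPM with AngII+HNG, without overlap, and their part in the levels of Fabp4 and the other lipid-handling genes was not tested. Of the 3 tested adipocyte markers 1 had a log2 fold change above 0 and 2 below, with a median of -0.14. No marker of any list was called for MOTS-c against AngII.

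Lrp1 belongs to the lipoprotein receptor family, of which 13 of 14 other members were tested. Lrp12 was the 1 gene called with HNG, and it was lower, where 5.98% of all genes were called and 2.58% were lower. It held 34.7, 33.6, 30.8 and 32.9 CPM with AngII and 27.4, 27.99, 27.2 and 27.3 CPM with AngII+HNG, and fell by 0.26 on the log2 scale (SE 0.0503, edgeR adjusted p = 0.00912). The median of the family was -0.02, beside 0.17 for Lrp1.

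The ligand list held 22 genes whose products bind Lrp1 or scavenger receptors, of which 21 were tested. With HNG 4 were called higher and 2 lower, against 3.4% and 2.58% of all genes. Apoe, the apolipoprotein that Lrp1 clears, rose most, from 111, 118, 125 and 128 CPM to 211, 222, 310 and 261 CPM, a log2 fold change of 1.06 (SE 0.1, edgeR adjusted p = 0.000129). Mmp2, a gelatinase, rose by 0.30 (edgeR adjusted p = 0.00161) and Plau, the urokinase plasminogen activator, by 0.44 (0.0187). Ccn2, a matricellular protein also called CTGF, fell by 0.31 (0.00454). Lpl, lipoprotein lipase, was the fourth gene called higher (log2 fold change 0.23, edgeR adjusted p = 0.0341). The call of Plau was lost without AngII replicate 1 or 2 or AngII+HNG replicate 4, with adjusted p-values up to 0.0797. The median of the list was -0.00.

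The list of uptake adaptors and processing enzymes held 24 genes, all tested. With HNG 2 were called higher and 1 lower, against 3.4% and 2.58% of all genes. Dab2, a clathrin adaptor that binds the tails of lipoprotein receptors, held 161, 154, 168 and 176 CPM with AngII and 211, 199, 198 and 250 CPM with AngII+HNG. It rose by 0.39 (SE 0.0696, edgeR adjusted p = 0.00632) without overlap, and its highest library was replicate 4 in each treatment. Cav1, the main caveolar protein, fell by 0.22 (edgeR adjusted p = 0.0127), and this was lost without AngII replicate 1 (0.054). Lrpap1, the chaperone of Lrp1, held 46.7 to 53.6 CPM with AngII and 44.7 to 57.6 CPM with AngII+HNG and was not called.

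The lipid-handling list held 16 genes, all tested. With HNG 4 were called higher and none lower, against 3.4% and 2.58% of all genes. Fabp4, a fatty acid-binding protein of adipocytes, macrophages and capillary endothelium, held 5.71, 4.85, 5.84 and 6.17 CPM with AngII and 8.02, 8.55, 7.58 and 8.64 CPM with AngII+HNG. Its libraries did not overlap and its log2 fold change was 0.54 (SE 0.0986, edgeR adjusted p = 0.00638). Abca1, the cholesterol exporter, rose by 0.41 (0.000129), Slc27a1, a fatty acid transporter, by 0.27 (0.00868) and Npc2, a lysosomal cholesterol carrier, by 0.20 (0.0263). The median of the list was 0.08.

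Between HNG and MOTS-c 9 of the 85 genes were called higher with HNG and 2 lower, or 12.9%, beside 4.41% of all genes. The named ones with the largest differences were Apoe at 0.90, Fabp4 at 0.85 and Cd68 at 0.52, and Lrp12 at -0.20 and Ccn2 at -0.28 were the genes called lower. Of the 16 lipid-handling genes 2 had MOTS-c and AngII libraries that did not overlap, against 3.41% of all genes, and neither passed the test. Fabp4 lay lower, at 3.89 to 4.83 CPM with MOTS-c and 4.85 to 6.17 CPM with AngII (log2 fold change -0.31, edgeR adjusted p = 0.924), and Abca1 lay higher, at 88.5 to 92.9 CPM and 79.3 to 86.6 CPM (log2 fold change 0.12, edgeR adjusted p = 0.924).

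**Figure D5:**
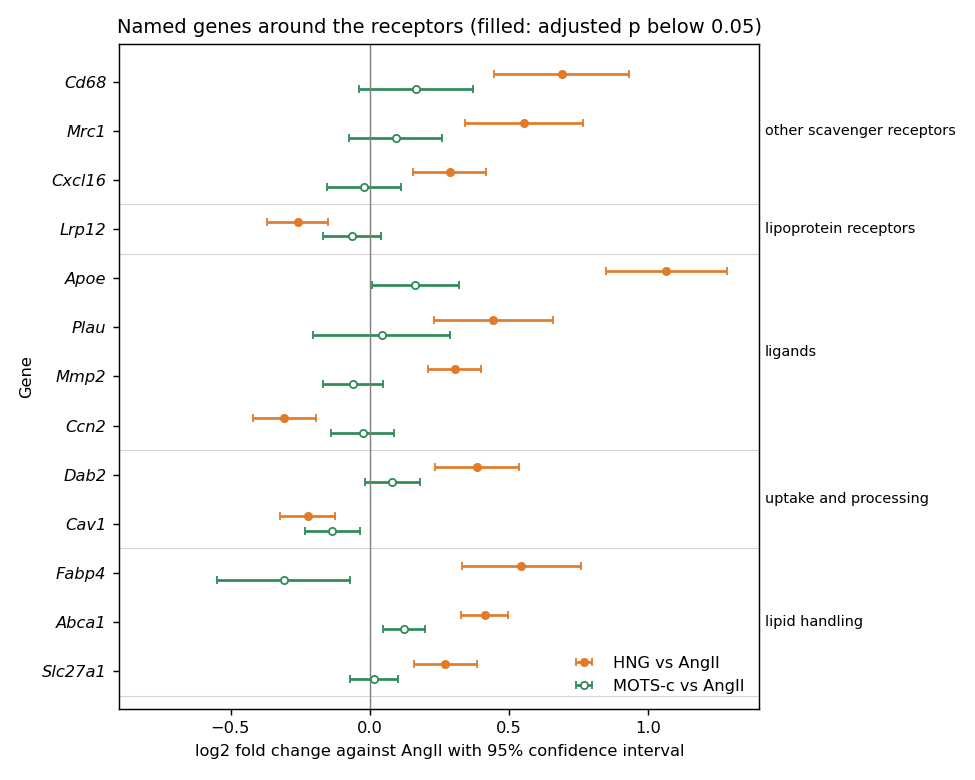
Log2 fold changes with 95% confidence intervals of 13 named genes around the receptors for HNG against AngII and MOTS-c against AngII, grouped by list, with filled points for an adjusted p below 0.05. All 13 are filled for HNG, from -0.31 for Ccn2 to 1.06 for Apoe, and none for MOTS-c.

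The profiles over the 12 libraries were compared as the root mean square difference of standardized log2 CPM over 13442 genes, where 0 is an identical profile and a typical gene lay at 1.35 to 1.37. Among the receptor genes, Scara5 and Lrp1 were the most alike at 0.606, followed by Scara3 and Scara5 at 0.664 and Msr1 and Colec12 at 0.685. The least alike were Scara5 and Olr1 and Msr1 and Scarb1, both at 1.76. Of the receptor genes Scara5 had the closest match outside the receptor list, Pltp, a phospholipid transfer protein, at 0.195, and then Dpp7 at 0.240. The nearest genes were Lilrb3a (0.261) and Inpp5k (0.366) for Scara3, Fbln1 (0.267) and Clmp (0.299) for Msr1, and Map3k3 (0.233) and Nckap1l (0.327) for Colec12. For Lrp1 they were Wdr19 (0.320) and Mroh1 (0.333), for Stab1 Nub1 (0.333) and Med28 (0.356), and for Olr1 Fibin (0.312) and Dclk1 (0.314). Scarb1 and Cd36 had no gene as close, with Eif4a1 (0.401) and Wdr36 (0.415) nearest to Scarb1 and Rfc1 (0.481) and Slc35f5 (0.501) nearest to Cd36. Likeness was taken over libraries of all 3 treatments and is a description without a test.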

How the data were processed

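Libraries of mRNA from 12 cultures, 4 for each of AngII, AngII+HNG and AngII+MOTS-c, were sequenced as paired-end reads on a DNBSEQ platform. Treatments and replicate numbers were taken from the sample titles, and doses and times from the study's methods. The authors deposited a table of raw read counts per gene, which are whole numbers, and a table of FPKM values, which relate each count to transcript length and sequencing depth. The submitters' processing notes name HISAT2, Picard 1.41 and SAMtools 0.1.18, while the genome build, the counting tool and its strand setting are not given in the sources used here. Of the 22850 features, 320 carry no annotated gene identifier and 4465 had 0 counts in all libraries.

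The counts were tested with edgeR 4.0.16 under R 4.3.3. Low genes were removed with filterByExpr, libraries were scaled by TMM, and models were fitted for each comparison on its own 8 libraries with glmQLFit and glmQLFTest, with Benjamini-Hochberg adjustment over all genes tested and a threshold of 0.05. Standard errors were derived from the F statistic. Alternatives were DESeq2 1.42.0, RLE factors, no filter, a minimum of 10 counts per library, one fit of all 12 libraries, a replicate block, a block by library-name number, replicates 2 and 3 summed, limma 3.58.1 on log2 of FPKM plus 1 or plus 0.1, each library left out, and, added after the data were seen, replicate 4 left out of both groups. The computation was tested on simulated counts.

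The receptor genes and all lists were chosen with earlier results of these data known. The text names all 10 receptor genes, of each pathway list up to 3 called genes with the largest change in each direction for HNG against AngII and up to 2 for the other comparisons, defining cell type markers, and the 2 genes with the profile nearest to each receptor gene. Lpl, Npc2, Lrpap1, Pbk, Esco2, Ccdc25 and the other cell type markers were named after their values were seen. Symbols of 10 of 10 receptor genes were found in RefSeq, whose promoter table for GRCr8 held 6. Without knowledge of strand, reads of overlapping antisense genes cannot be told apart. Some listed genes that enter the counts are not reported here by name. The p-values set a difference between groups against the spread between these libraries.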

Additional observations from a re-analysis of the deposited data

Results flagged for a closer look

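A library far from the other 3 of its group was found in 4 of 66 groups of 4 libraries checked over the receptor genes and the named genes around them, where chance alone flags about 1 in 20 groups. AngII+HNG replicate 4 held 78.4 CPM of Colec12, while the other HNG libraries held 65.2 to 67.1 CPM. AngII replicate 3 held 23.8 CPM of Stab1, while the other AngII libraries held 16.6 to 17.5 CPM. AngII+MOTS-c replicate 2 stood low, at 28.1 CPM of Mrc1 beside 34.0 to 34.6 CPM and at 111.4 CPM of Apoe beside 140.5 to 145.8 CPM. The causes were not tested.

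The response to HNG and that to MOTS-c differed, in a direct test of AngII+HNG against AngII+MOTS-c by edgeR with adjustment over all genes, for Scara5 (log2 difference 0.48, adjusted p = 0.000442) and for 11 named genes around the receptors. Higher with HNG were Apoe (0.90, adjusted p = 0.00093), Fabp4 (0.85, 0.000638), Cd68 (0.52, 0.00907), Mrc1 (0.46, 0.0209), Mmp2 (0.36, 0.0029), Cxcl16 (0.31, 0.0136), Dab2 (0.30, 0.0304), Abca1 (0.29, 0.00112) and Slc27a1 (0.25, 0.0153). Lower with HNG were Lrp12 (-0.20, 0.0335) and Ccn2 (-0.28, 0.0124). The call of Lrp12 held in 8 of 19 alternatives, with adjusted p up to 0.127, those of Cxcl16 and Dab2 in 13 (up to 0.089 and 0.107), that of Mrc1 in 15 (up to 0.0732), that of Slc27a1 in 16 (up to 0.0777) and that of Ccn2 in 17 (up to 0.064), while the others held in all 19. For each of these genes all 4 libraries of one peptide were compared with all 4 of the other, at doses that differed between the peptides.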

How the results depend on the processing

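No receptor gene or named gene that was called changed its direction under any alternative. Of 171 values of the receptor genes for HNG against AngII, 16 lost and 9 gained a call, and for HNG against MOTS-c 10 gained one. Of 247 values of the named genes 6 lost a call for HNG against AngII, and for HNG against MOTS-c 32 lost and 5 gained one. For MOTS-c against AngII no receptor gene or named gene gained a call. Their log2 fold changes still moved, as from -0.02 to 0.21 for Msr1 and from -0.29 to 0.02 for Scara3.

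The count of genes called for HNG against AngII was 869. It was 577 with replicates 2 and 3 summed and 541 without replicate 4 of both groups, and 431 (without AngII replicate 1) to 932 with 1 library left out. With 1 library left out the count of receptor genes, 4, ranged from 1 (Scara5, without AngII replicate 2) to 4, with 2 without AngII replicate 1 or AngII+HNG replicate 4, and that of the related genes, 17, from 10 (without AngII replicate 1) to 19. Under the other alternatives these counts were 3 to 6 for the receptor genes and 14 to 21 for the related genes. Of all genes 1191 were called with DESeq2 and 1035 with all 12 libraries in one fit. The replicate block called 1111 of all genes and the block by library-name number 1113.

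For MOTS-c against AngII the 1 gene called became 4 with DESeq2, 2 with the replicate block, 0 with all 12 libraries in one fit, with replicates 2 and 3 summed and without replicate 4 of both groups, and 0 to 3 with 1 library left out. For HNG against MOTS-c the 637 genes became 1034 with DESeq2, 975 with all 12 libraries in one fit, 1054 with the replicate block, 377 without replicate 4 of both groups, and 322 (without AngII+MOTS-c replicate 2) to 625 with 1 library left out. The 1 receptor gene became 3 with DESeq2 and with the replicate block, 2 with a minimum of 10 counts per library, one fit of all 12 libraries, a block by library-name number or replicates 2 and 3 summed, and 1 to 2 with 1 library left out. The 11 related genes became 20 with the replicate block, 7 with limma at either pseudocount, and 6 (without AngII+MOTS-c replicate 1 or 2) to 15 with 1 library left out.

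Libraries with the same replicate number deviated together with correlations of -0.0755 to 0.136 for HNG against AngII, 2.96e-05 to 0.119 for MOTS-c against AngII and -0.014 to 0.212 for HNG against MOTS-c, so the number is not known to pair them. The replicate block called 5 receptor genes for HNG against AngII, with Stab1 added (adjusted p = 0.0186, range over alternatives 0.0135 to 0.271). The block by library-name number called 6, with Colec12 added as well (adjusted p = 0.0475, range 0.0475 to 0.496). Of all genes these blocks called 1111 and 1113, against 869 in the main fit. For HNG against MOTS-c the replicate block added Msr1 and Scara3, with 1054 of all genes called instead of 637. The block by library-name number added Msr1, with 485 of all genes called. There AngII+HNG replicate 1 carries number 1 and AngII+MOTS-c replicate 1 number 2. Each is alone in its block and adds nothing to the difference. Msr1 was not called with replicates 2 and 3 summed (adjusted p = 0.11). Of the ranks by FPKM 4 moved when levels were not divided by length. The causes of these changes were not tested. Scara3 and Cd36 had the fewest counts of the tested receptor genes, below 250 per library.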
